A study of Mus musculus with 2 samples.

Results

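Interferon-stimulated genes are genes whose transcription rises when a cell senses interferon. The list described here holds 34 such genes typical of the type I interferon response, chosen by symbol, and all 34 were present among the 55450 genes of the single-cell count matrices. EMT6 is a mouse mammary carcinoma line used as a model of triple-negative breast cancer, and tumors were grown from 200000 EMT6 cells injected under the skin of female BALB/c mice of 5 to 6 weeks. There were 2 droplet single-cell RNA libraries, each made from the tumors of 3 mice pooled together. Mice of the first library, Olaparib + LLY-283, received LLY-283, an inhibitor of the arginine methyltransferase PRMT5, at 50 mg/kg for 3 days on and 4 days off, and Olaparib, an inhibitor of the DNA repair enzyme PARP, at 50 mg/kg daily. Mice of the second library, Combo, received the same 2 drugs and in addition an antibody against the T cell receptor PD-1 at 200 µg every 3 days. Both libraries therefore carried both drugs, and no untreated tumor is analysed here. Because each group is represented by 1 library, effects of treatment, of the mice pooled and of library preparation cannot be told apart, and all differences below are between 2 libraries, with no replicate and no test.

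Type I interferons, interferon beta and the interferon alphas, bind the receptor formed by IFNAR1 and IFNAR2 and activate the kinases JAK1 and TYK2. The signal leads to the complex ISGF3, of which STAT2 and IRF9 are parts, and ISGF3 binds interferon-stimulated response elements upstream of its target genes. The products block steps of viral replication, sense foreign nucleic acids or feed back on the pathway. In tumors the same genes are read as a sign of interferon signaling in malignant and infiltrating cells, and many of them also respond to interferon gamma.

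Promoter sequence is shown for 6 members. Bst2 and Isg15 took large shares of the sums, Ifit1, Ifit3 and Rsad2 varied together most closely among tumor cells, and Ifit3b is set beside its paralog Ifit3. RefSeq windows of GRCm38.p6 were at hand for 28 of the 34 members, not including Ifi27l2a, and covered 250 bases before each gene's start. The core of the response element was searched as a pair of TTTC runs with any 2 bases between them, or the same with GAAA runs on the other strand, and it was found in 16 of the 28 member promoters (57.1%), against 936 of 27025 genes (3.46%) in the same windows. Of those 16 members, 10 held at least 2 matches, overlapping ones included. The windows below run 5′ to 3′ in the direction of the gene, with motif matches in capitals. They lie at chr19:34640769-34640848 (+ strand) for Ifit1, chr19:34583372-34583451 (+) for Ifit3, chr19:34607768-34607847 (+) for Ifit3b, chr4:156200840-156200919 (− strand) for Isg15, chr12:26456528-26456607 (−) for Rsad2 and chr8:71537552-71537631 (−) for Bst2.
Ifit1: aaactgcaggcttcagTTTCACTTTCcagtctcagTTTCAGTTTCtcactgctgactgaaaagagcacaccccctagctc
Ifit3: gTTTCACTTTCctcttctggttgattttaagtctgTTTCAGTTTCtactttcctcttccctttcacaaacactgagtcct
Ifit3b: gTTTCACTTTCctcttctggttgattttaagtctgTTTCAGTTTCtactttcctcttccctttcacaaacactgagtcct
Isg15: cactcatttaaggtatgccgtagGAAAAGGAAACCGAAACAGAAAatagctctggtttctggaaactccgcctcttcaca
Bst2: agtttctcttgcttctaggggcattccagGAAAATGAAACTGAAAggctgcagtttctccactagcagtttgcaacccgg
Rsad2: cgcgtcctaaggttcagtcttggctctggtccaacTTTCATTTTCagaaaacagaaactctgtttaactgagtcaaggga
The windows of Ifit3 and Ifit3b were identical base for base, and Isg15 carried 3 overlapping matches. A match is a description of these letters, and binding was not measured.

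There were 16115 cells with 147214934 unique molecular identifiers (UMIs, 1 per captured transcript) in Olaparib + LLY-283, and 7542 cells with 162522700 UMIs in Combo. After the filters on cells and doublets, 13974 and 5672 cells were used, and 39 barcodes occurred in both libraries. Cells were assigned to classes by UMIs of marker genes, none of which is a member. The tumor-like class (keratins and Epcam) held 7865 cells of Olaparib + LLY-283 and 2165 of Combo. Its marker UMIs came mainly from Krt8, at 955 and 925 CPM in this class, against 3.88 and 3.61 CPM for Epcam. The macrophage-like class held 879 and 669 cells, neutrophil-like 628 and 1205, fibroblast-like 207 and 66, lymphocyte-like 55 and 41, and dendritic-like 19 and 25. Median UMIs per cell differed strongly between the libraries, with 9503 against 48524 in tumor-like cells and 656 against 1963 in neutrophil-like cells. Of the cells used, 4130 and 1345 passed for no class. In each of these classes the median summed level of its own markers was the highest of the 6 marker lists in both libraries. The same markers had assigned the cells, so this is no separate support for the class names. Levels are given as CPM, UMIs of a gene scaled to 1000000 UMIs over all cells of the class in that library, with exact Poisson intervals, and differences as the log2 ratio of Combo over Olaparib + LLY-283 with exact binomial intervals, all at 95% and for counting error only.

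The 34 genes took the smallest share of RNA in tumor-like and fibroblast-like cells and the largest in neutrophil-like cells. In tumor-like cells their summed level was 1183 CPM (1176 to 1190.1) in Olaparib + LLY-283 and 1189 CPM (1182 to 1195) in Combo. In macrophage-like cells it was 2768 CPM (2697 to 2840.3) and 2674 CPM (2638 to 2711), and in neutrophil-like cells 3469 CPM (3303 to 3641) and 4487 CPM (4403 to 4572). Macrophage-like and neutrophil-like cells thus lay above tumor-like cells in both libraries, by 2.34-fold and 2.25-fold for the former and by 2.93-fold and 3.77-fold for the latter. Fibroblast-like cells had 1529.8 CPM (1449 to 1614) and 1151 CPM (1093 to 1211), above tumor-like cells in Olaparib + LLY-283 and with overlapping intervals in Combo. The smaller classes had wider intervals, with 2142 CPM (1814 to 2512) and 1396 CPM (1243 to 1564) in lymphocyte-like cells and 2726 CPM (2293 to 3217) and 3497 CPM (3248 to 3760.5) in dendritic-like cells.

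Tumor markers were also found outside tumor-like cells, and the part of free RNA and of remaining doublets in this was not tested. The summed tumor markers in neutrophil-like cells were 38.5% of their tumor-like level in Olaparib + LLY-283 and 21.4% in Combo, while macrophage-like cells had 16.6% and 10.2% and fibroblast-like cells 17.7% and 11.4%. Cells of other classes that also passed for tumor-like with at least 2 different tumor markers had been left out as mixed. Tumor-like cells had been chosen by the same markers, so these proportions may be too low. Tumor-cell RNA in these proportions would bring 456 and 254 CPM of the members to neutrophil-like cells, which is 13.1% and 5.66% of what was measured there. It would bring 7.11% and 4.55% of the macrophage-like sum and 13.7% and 11.8% of the fibroblast-like sum. The proportion differed between single members. In neutrophil-like cells, the intervals of 10 members in Olaparib + LLY-283 and of 6 in Combo did not lie above the level that tumor RNA would bring, and the 10 were Apol9a, Apol9b, Bst2, Eif2ak2, Ifi44, Mx1, Mx2, Oas1a, Oas1g and Phf11d. In macrophage-like cells this held for 0 and 1 members, in fibroblast-like cells for 6 and 9. In the small lymphocyte-like and dendritic-like classes it held for 18 and 12 and for 22 and 13.

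**Figure D1:**
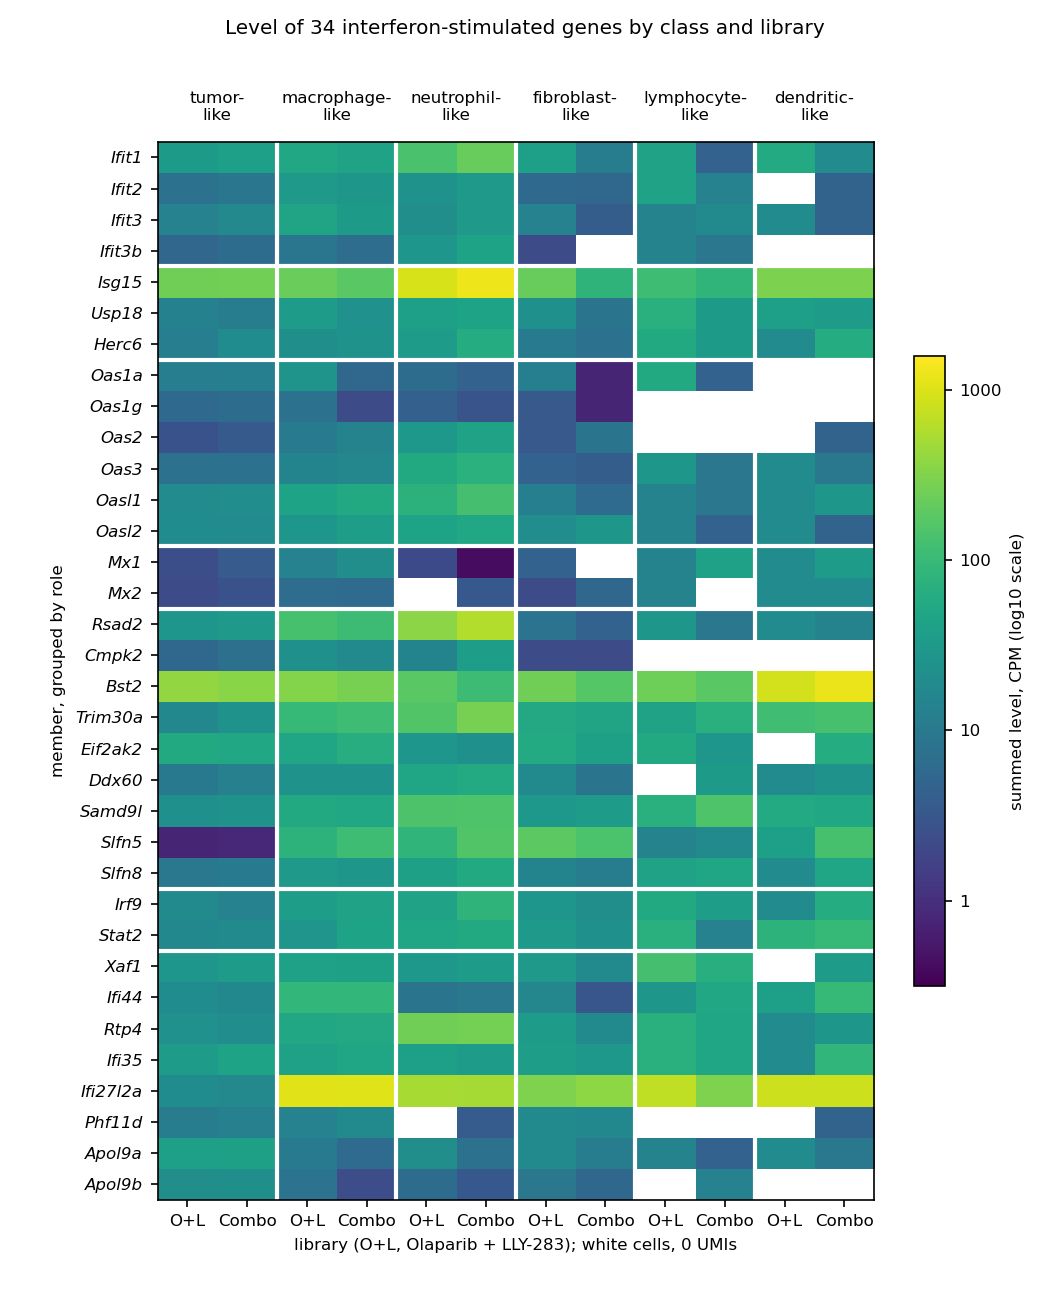
Summed level of each of the 34 members, grouped by role, in the 6 classes and 2 libraries (O+L, Olaparib + LLY-283), in CPM on a log10 color scale, with white for 0 UMIs. Ifi27l2a is dark in tumor-like cells, at 19.8 and 17.4 CPM, and bright in every other class, while Apol9a and Apol9b are highest in tumor-like cells among the 4 larger classes.

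Different members made up the sums. Bst2, which encodes tetherin, a membrane protein that holds budding virus particles at the cell surface, provided 33.4% and 29.4% of the member UMIs of tumor-like cells. Its level there was 395 CPM in Olaparib + LLY-283 and 349 CPM in Combo, and it was the highest of the 4 larger classes in both libraries. Ifi27l2a, a small interferon-induced protein, provided 38.5% and 38.6% of those of macrophage-like cells. It stood at 1066 and 1031 CPM there against 19.8 and 17.4 CPM in tumor-like cells, a difference of 53.9-fold and 59.2-fold. Isg15, a ubiquitin-like protein that is coupled to other proteins and also secreted, provided 27.6% and 28.8% of those of neutrophil-like cells. With these 3 genes left out, the other 31 summed to 519 and 566 CPM in tumor-like, 1147 and 1184 CPM in macrophage-like and 1822 and 2577 CPM in neutrophil-like cells, the same order of classes in both libraries.

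Among the 4 larger classes, 17 members were highest in neutrophil-like cells in both libraries, 7 in macrophage-like cells, 3 in tumor-like cells and 0 in fibroblast-like cells, while 7 had different highest classes in the 2 libraries. The 3 members highest in tumor-like cells were Bst2, Apol9a and Apol9b, the last 2 being mouse apolipoprotein L genes. Apol9a had 38.5 and 39.8 CPM in tumor-like cells and 10.6 and 6.14 CPM in macrophage-like cells. Rsad2, which encodes viperin, an enzyme that makes a chain-terminating nucleotide, was 12.9-fold and 18.7-fold higher in neutrophil-like than in tumor-like cells. Rtp4, a chaperone of membrane receptors, was 10.6-fold and 13.1-fold higher there, Oas2 11.1-fold and 12.1-fold, and Trim30a, a ubiquitin ligase that dampens inflammatory signaling, 9.27-fold and 11.3-fold. At least 2-fold above tumor-like cells in both libraries were 21 members in neutrophil-like cells, 16 in macrophage-like cells and 2 in fibroblast-like cells. At least 2-fold below, members with 0 UMIs included, were 4, 2 and 5. In lymphocyte-like cells 9 were above and 6 below, and in dendritic-like cells 10 and 6. No share of all genes stands beside these counts or those of the highest class, so they describe the members only.

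Slfn5, of the Schlafen family of growth and antiviral regulators, was nearly missing from tumor-like cells. It had 68 UMIs in Olaparib + LLY-283 and 89 in Combo there, or 0.759 and 0.814 CPM. The level was 76.8 and 111 CPM in macrophage-like cells, 82.9 and 159 CPM in neutrophil-like cells and 187 and 141 CPM in fibroblast-like cells, where it was 247-fold and 173-fold above tumor-like cells. Slfn8, of the same gene cluster on chr11, behaved differently, with 9.70 and 10.6 CPM in tumor-like cells against 30.2 and 29.2 CPM in macrophage-like cells.

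The libraries were next compared within each class. A gene was counted as higher or lower when its CPM differed by at least 1.5-fold and it had at least 20 UMIs over both libraries in the class. This is a rule of size in place of a test, so the share of all genes of a class past it is given beside the counts of that class.

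In tumor-like cells the summed level was nearly the same in both libraries, with a log2 ratio of 0.0069 (−0.0049 to 0.019). All 34 members had at least 20 UMIs, of which 1 was higher in Combo, where 7.98% of 16727 genes were, and 0 were lower, where 5.32% of the genes were. The median log2 ratio was 0.12 for the members and 0.05 for all genes. The higher member was Herc6, the main ligase that attaches ISG15 in mice, at 12 CPM in Olaparib + LLY-283 and 19.8 CPM in Combo, a log2 ratio of 0.72 (0.61 to 0.83). The interferon-induced GTPase gene Mx1, with 2.43 and 3.63 CPM, was just short of the rule at 0.58 (0.34 to 0.82), and Trim30a had 17.0 and 24.2 CPM, at 0.51 (0.42 to 0.60). BALB/c mice are among the laboratory strains whose Mx1 gene is known to be defective, so its RNA does not stand for a working protein.

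The other end of the tumor-like order was held by Irf9, the DNA-binding part of ISGF3, with 18.0 and 14.0 CPM and a log2 ratio of −0.36 (−0.47 to −0.26). Usp18, the protease that removes ISG15 and shuts down IFNAR signaling, had 13.3 and 11.2 CPM, at −0.25 (−0.37 to −0.14). Ifi44, an interferon-induced cytoplasmic protein, had 19.9 and 17.1 CPM, at −0.22 (−0.31 to −0.12). Counting error was small in this class, and the intervals of 25 members left out 0, 18 above it and 7 below. Most of these differences were small in size. The share of all genes whose intervals left out 0 is not given, so this count describes the members only.

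The 4 IFIT genes, whose products bind foreign viral RNA, lay together on chr19 between Ifit2 (chr19:34550694-34576419, + strand) and Ifit1 (chr19:34640871-34650009, +). In tumor-like cells Ifit1 had 32.4 and 38.7 CPM, Ifit2 7.53 and 8.91 CPM, Ifit3 13.7 and 17.2 CPM and Ifit3b 5.29 and 6.36 CPM, all 4 slightly higher in Combo with intervals that left out 0. In macrophage-like cells Ifit1 had 50.4 and 43.2 CPM, with an interval for the difference that held 0, and Ifit3 had 45.6 and 32.7 CPM, a log2 ratio of −0.48 (−0.83 to −0.12). In neutrophil-like cells Ifit1 had 138 and 217 CPM, and in fibroblast-like cells 39.0 and 11.6 CPM from 34 and 15 UMIs. Of the 90-base windows of the Ifit3 transcript end, 6.57% also occur in other genes, most often in Ifit3b, so assignment of reads within this pair is uncertain.

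In macrophage-like cells the sum was slightly lower in Combo, at a log2 ratio of −0.05 (−0.09 to −0.01), and 0.05 (−0.02 to 0.11) without Bst2, Isg15 and Ifi27l2a. Of the 34 members, 2 were higher (9.98% of 11394 genes) and 4 lower (7.46%), or 1 and 5 after the median log2 ratio of all genes was subtracted. The members' median was −0.04, that of all genes 0.07. The sum was 0.11 when the doublets were kept and 0.17 as a mean over cells, so its direction depended on the processing. Of the higher members, Stat2, a part of ISGF3, had 26.9 CPM in Olaparib + LLY-283 and 43.9 CPM in Combo, at 0.71 (0.30 to 1.14), and Mx1 had 13.9 and 21.3 CPM, at 0.62 (0.04 to 1.24). The lower members were 2 pairs of paralogs. Oas1a, a synthetase whose product 2′,5′-oligoadenylate activates RNase L, had 54 and 43 UMIs, or 25.9 and 5.62 CPM, a log2 ratio of −2.20 (−2.82 to −1.60). Its paralog Oas1g had 7.68 and 2.22 CPM, Apol9a 10.6 and 6.14 CPM and Apol9b 8.16 and 2.35 CPM. The interval of Apol9a, −1.54 to 0.02, held 0. Tumor-cell RNA in proportion to the tumor markers would bring 6.41 and 4.08 CPM of Apol9a and 3.59 and 2.27 CPM of Apol9b.

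Assignment between these paralogs is uncertain. Of the 90-base windows in the last 500 bases of the Oas1a transcripts, 42.3% also occur in other genes, most often in Oas1g. For Apol9b 20.0% occur in other genes, most often in Apol9a. All 4 had fewer than 100 UMIs over both libraries in macrophage-like cells, so that with a minimum of 100 UMIs 0 members were lower. Among better counted members the lowest were Usp18, with 34.5 and 23.9 CPM at −0.53 (−0.93 to −0.12), Ifit3, and Isg15, with 225 and 180 CPM at −0.32 (−0.48 to −0.17). Of these, Isg15 and Ifit3 were instead slightly higher in Combo when each cell had the same weight, at 0.11 and 0.13. Slfn5 was the third highest, with 76.8 and 111 CPM at 0.54 (0.29 to 0.79).

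The other OAS genes did not share the difference of Oas1a in macrophage-like cells. Oas2 had 10.1 and 14.5 CPM and Oas3 14.9 and 16.3 CPM, with intervals that held 0. Oasl1 and Oasl2, related proteins of which OASL1 is known to repress translation of Irf7, had 44.1 and 56.2 CPM and 27.3 and 38.0 CPM, with log2 ratios of 0.35 (0.02 to 0.69) and 0.48 (0.06 to 0.91).

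**Figure D2:**
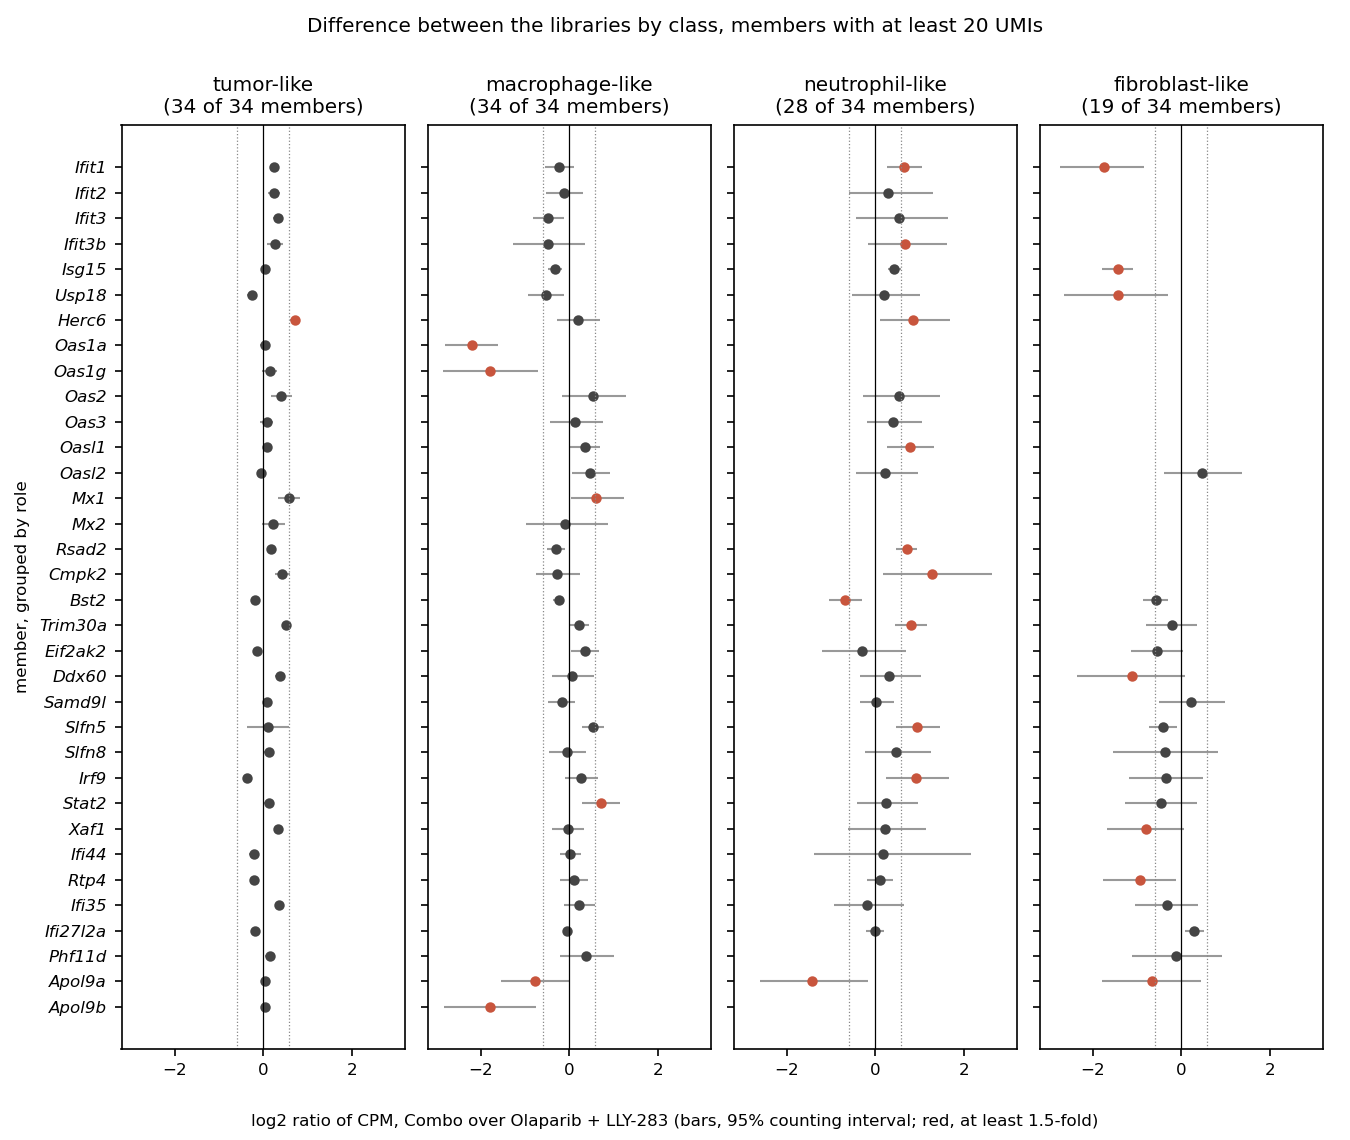
Log2 ratio of CPM, Combo over Olaparib + LLY-283, for each member with at least 20 UMIs in the 4 larger classes, with 95% counting intervals and dotted lines at 1.5-fold (red, past it). Points lie near 0 in tumor-like cells, 9 of 28 lie beyond the upper line in neutrophil-like cells and 7 of 19 beyond the lower line in fibroblast-like cells.

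Neutrophil-like cells had the largest sum and a higher one in Combo, at a log2 ratio of 0.37 (0.30 to 0.45). Of 28 members with at least 20 UMIs, 9 were higher in Combo and 2 lower, where 20.3% and 24.6% of 7889 genes were, and the median was 0.36 against −0.07 for all genes. The higher members were Ifit1, Ifit3b, Rsad2, Cmpk2, Oasl1, Irf9, Trim30a, Herc6 and Slfn5, and the lower ones Bst2 and Apol9a. Rsad2 had 361 CPM in Olaparib + LLY-283 and 591 CPM in Combo, at 0.71 (0.48 to 0.95). Cmpk2, a mitochondrial nucleotide kinase that adjoins Rsad2 on chr12, had 14.9 and 36.1 CPM at 1.28 (0.18 to 2.64), from 7 and 87 UMIs, and −0.21 among cells with at least 1000 UMIs. Slfn5 had 82.9 and 159 CPM, Irf9 42.5 and 80.2 CPM and Trim30a 157 and 274 CPM, with log2 ratios of 0.94 (0.46 to 1.45), 0.91 (0.25 to 1.66) and 0.80 (0.45 to 1.17). For Herc6, 34 and 61.5 CPM gave 0.85 (0.11 to 1.70), and 0.22 among cells with at least 1000 UMIs. In these cells, as in all classes with few UMIs, the intervals were wide. Isg15, the largest contributor, had 959 and 1292 CPM, at 0.43 (0.29 to 0.58), short of the rule.

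The lower members in neutrophil-like cells were among those close to the level that tumor-cell RNA would bring. Bst2 had 176 and 110 CPM and a log2 ratio of −0.68 (−1.04 to −0.30), which became 0.20 after tumor RNA was subtracted in proportion to the tumor markers. With this subtraction the sum differed by 0.13. Over the class, Ifi27l2a had 512 and 507 CPM and Samd9l, an inhibitor of translation, 149 and 152 CPM, with intervals for the difference that held 0.

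Neutrophil-like cells of the 2 libraries divided differently between clusters. Clusters were formed over both libraries together, without the members and the pathway genes listed below and without alignment of the libraries. Cluster 7 held 605 neutrophil-like cells of Olaparib + LLY-283 and 472 of Combo, whereas cluster 12 held 7 and 732. Median UMIs per cell were 650 and 1597.5 in cluster 7 and 2146.5 in cluster 12 of Combo. The part of depth and of the library in this division was not tested. Within cluster 7 the members summed to 3614 CPM (3438 to 3796) and 3697 CPM (3564 to 3834), with overlapping intervals and a log2 ratio of 0.03. In cluster 12 of Combo they summed to 4892 CPM (4784 to 5001). Isg15 was at 1020 and 966 CPM in cluster 7 and at 1458 CPM in cluster 12 of Combo, and Slfn5 at 89.2 and 100.1 CPM against 189 CPM. Ifi27l2a was lower in Combo within cluster 7, at 519 and 311 CPM and a log2 ratio of −0.74, against 604 CPM in cluster 12. Rsad2 was higher in Combo within cluster 7, at 380 CPM (324 to 442) and 650.2 CPM (595 to 709), against 565 CPM in cluster 12. Higher there too were Herc6, at 32 and 65.9 CPM, Irf9, at 38.9 and 60.8 CPM, Cmpk2, at 16 and 33 CPM, and Oasl1, at 77.8 and 114 CPM, each with overlapping intervals. Lower in Combo within cluster 7 was Bst2, at 178 CPM (141 to 223) and 112 CPM (89.5 to 137). So were, with overlapping intervals, Apol9a, at 22.9 and 5.07 CPM, and Oas3, at 57.2 and 38.0 CPM. Of the neutrophil markers, the chemokine receptor gene Cxcr2 stood at 556 and 323 CPM in cluster 7 and 1239 CPM in cluster 12. Retnlg, at 2061 and 520 CPM in cluster 7, had 1246 CPM in cluster 12, between these values. Mmp8, outside the marker list, had 50.3 and 25.3 CPM in cluster 7 and 226 CPM in cluster 12. The maturity of these cells was not tested. Tumor markers in cluster 12 were 18.2% of their tumor-like level, against 37.3% and 28.0% in cluster 7.

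**Figure D3:**
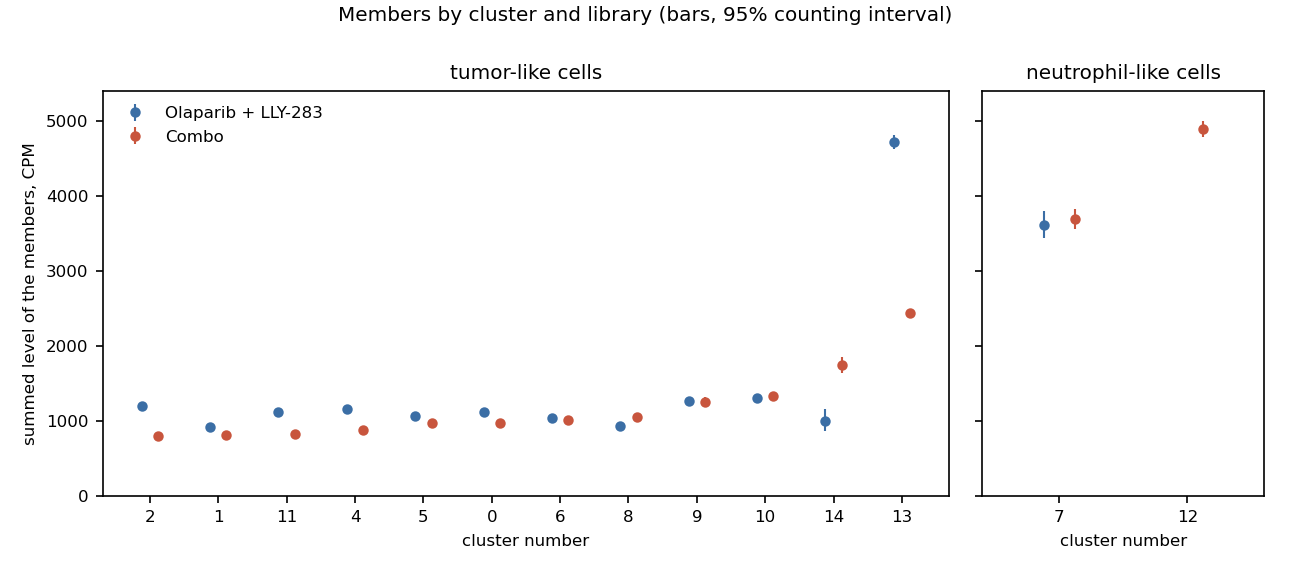
Summed level of the 34 members in CPM, by cluster and library, for tumor-like cells (left, clusters in order of their level in Combo) and neutrophil-like cells (right), with 95% counting intervals. Cluster 13 stands apart among tumor-like cells, at 4721 CPM in Olaparib + LLY-283 and 2438 CPM in Combo, and cluster 12 of the neutrophil-like cells is shown for Combo alone, since the other library had 7 such cells.

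In fibroblast-like cells the sum was lower in Combo, at −0.41 (−0.52 to −0.30). Of 19 members with at least 20 UMIs, 0 were higher (10.9% of 8575 genes) and 7 lower (6.86%), and the median was −0.47 against 0.04 for all genes. The lower members were Ifit1, Isg15, Usp18, Ddx60, Xaf1, Rtp4 and Apol9a. Isg15 had 217 CPM in Olaparib + LLY-283 and 80.4 CPM in Combo, at −1.43 (−1.79 to −1.08), and Ifit1 was at −1.75 (−2.73 to −0.84). Ddx60, a helicase that aids RNA sensing, had 18.4 and 8.50 CPM, and Xaf1, a proapoptotic antagonist of XIAP, 31.0 and 17.8 CPM, with intervals that held 0. Bst2 and Slfn5 had 248 and 166 CPM and 187 and 141 CPM, at −0.58 (−0.86 to −0.30) and −0.41 (−0.72 to −0.10). Ifi27l2a went the other way, with 308 and 376 CPM, at 0.29 (0.07 to 0.51). Only 66 cells stood behind the Combo values, and the sum was −0.01 with stricter marker gates and −0.06 with looser ones. With looser gates the 7 lower members also moved toward or past 0, with Isg15 at −0.17, Ddx60 at −0.14, Xaf1 at −0.12, Rtp4 at −0.28, Apol9a at −0.039 and Ifit1 at 0.20. Usp18 was nearest to 0 without the 1% of cells with the most member UMIs, at −0.45.

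The 2 smallest classes had few members with at least 20 UMIs. In lymphocyte-like cells the sum was at −0.62 (−0.90 to −0.33), and of 5 members with at least 20 UMIs 1 was higher (20.3% of 2287 genes) and 2 lower (16.1%). Ifi27l2a had 709 CPM in Olaparib + LLY-283 and 308 CPM in Combo, at −1.20 (−1.75 to −0.64), from 50 and 66 UMIs. The other lower member was Xaf1, with 128 and 65.4 CPM, and the higher one Samd9l, with 70.9 and 154 CPM, both with intervals that held 0. In dendritic-like cells the sum was at 0.36 (0.10 to 0.63), and of 7 members 2, Ifi44 and Slfn5, were higher (30.3% of 2081 genes) and 0 lower (16.4%). Both rested on 2 UMIs in Olaparib + LLY-283 against 20 and 28 in Combo, with intervals that held 0, and their log2 ratios were −0.34 and 0.33 from Leiden clusters. Bst2, known as a marker of plasmacytoid dendritic cells, had 896 and 1247 CPM there, above its tumor-like level, and Ifi27l2a 837 and 840 CPM.

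The remaining members are described by their range. Stat2, Ifi35, Phf11d, Eif2ak2, Oas3, Oas2, Mx2, Slfn8 and Rtp4 had tumor-like log2 ratios between the −0.20 of Rtp4 and the 0.41 of Oas2. Eif2ak2, the RNA-activated kinase PKR that stops translation, had 56.7 and 51.6 CPM in tumor-like cells and 49.4 and 63.4 CPM in macrophage-like cells, where its log2 ratio was 0.36 (0.05 to 0.68). Ifi35, a partner of the adaptor NMI, had 34.7 and 44.3 CPM in tumor-like cells and 41.3 and 48.0 CPM in macrophage-like cells. Mx2 (chr16:97535308-97560900, + strand), annotated as a polymorphic pseudogene, had 2.32 and 2.72 CPM in tumor-like cells. Phf11d shares 46.5% of its transcript-end windows with other genes, most often with Phf11c, and had 11.7 and 13 CPM in tumor-like cells.

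Among tumor-like cells, the members were spread unevenly, with a tail of high cells. To compare cells at equal depth, each was thinned at random to 5000 UMIs, which left 6871 of 7865 cells of Olaparib + LLY-283 and 2102 of 2165 cells of Combo, without the shallower ones. The 34 members together gave a mean of 5.83 and 6.01 UMIs per cell and a median of 4 in both libraries, while the highest cell had 91 and 150. The variance was 8.29 and 12.9 times the mean, where a Poisson count would have equal values. The 10% of cells with the most member UMIs held 37.1% and 41.1% of them, and the same counts ranked the cells. Cells with 0 member UMIs made up 4.19% and 3.62%. Cells with at least 20 member UMIs made up 4.02% (276 cells) in Olaparib + LLY-283 and 4.33% (91 cells) in Combo.

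**Figure D4:**
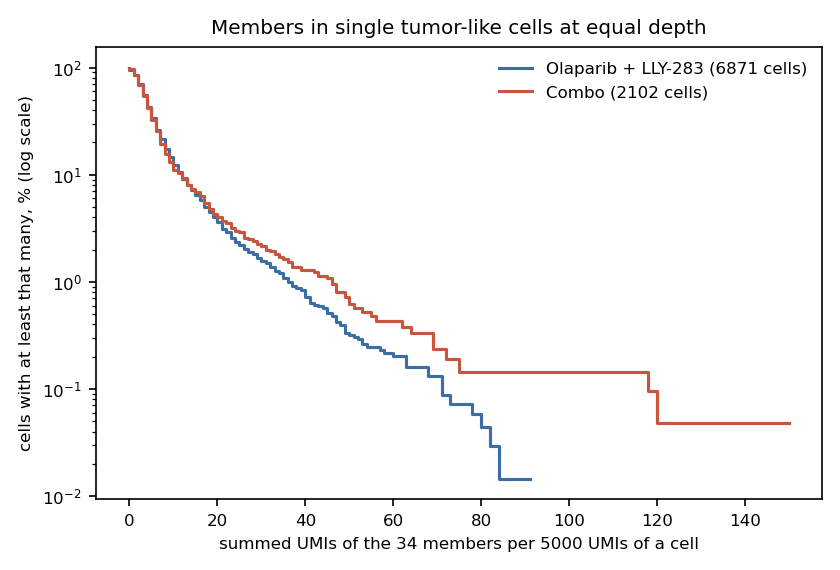
Share of tumor-like cells, in percent on a log scale, with at least the given number of summed member UMIs after thinning to 5000 UMIs per cell. The curves of the 2 libraries run together up to about 20 UMIs, passed by 4.02% and 4.33% of cells, and the Combo curve reaches 150 UMIs against 91.

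How the members varied together was described by Pearson's r of log2(UMIs + 1) over these cells, for the 29 members found in at least 2% of cells of each library. The median over the 406 pairs was 0.080 in Olaparib + LLY-283 and 0.105 in Combo. Between a member and the 9596 and 9631 other genes found at that share it was 0.00037 and 0.00068. Most cells had 0 UMIs of most members, and the median was 0.129 and 0.163 at 10000 UMIs per cell. An r over 0.1 was reached by 158 pairs (38.9%) and 219 pairs (53.9%).

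A core of genes stood out within the list. Ifit1 and Rsad2 had the highest r, 0.55 in Olaparib + LLY-283 and 0.67 in Combo. Ifit1 with Ifit3 gave 0.48 and 0.62, Ifit3 with Rsad2 0.48 and 0.59, Ifit1 with Isg15 0.42 and 0.46, and the neighbors Rsad2 and Cmpk2 0.37 and 0.39. The promoter window of Cmpk2 held 0 matches to the motif, and the promoters of the other genes of these pairs are among those printed above. A relation between matches and r was not tested. Ifi27l2a stood outside this core, with a median r with the other members of 0.027 and 0.012.

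The cells were also divided by the summed UMIs of all other members, so that a gene never ranked its own cells. Ifit1 was found in 39.6% of the highest 10% of cells and 3.64% of the rest in Olaparib + LLY-283, and in 41.0% and 2.06% in Combo. For Ifit3 the shares were 25.2% and 1.46%, and 31.4% and 1.06%. Over all tumor-like cells the share with an Ifit1 UMI was 7.23% and 5.95% after thinning, against 12.5% and 22.0% with all UMIs. Widely found members differed less. Bst2 was found in 92.7% and 71.8% of these cells, and in 91.4% and 68.1%. Irf9 was found in 17.2% and 7.88%, and in 15.7% and 6.29%.

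**Figure D5:**
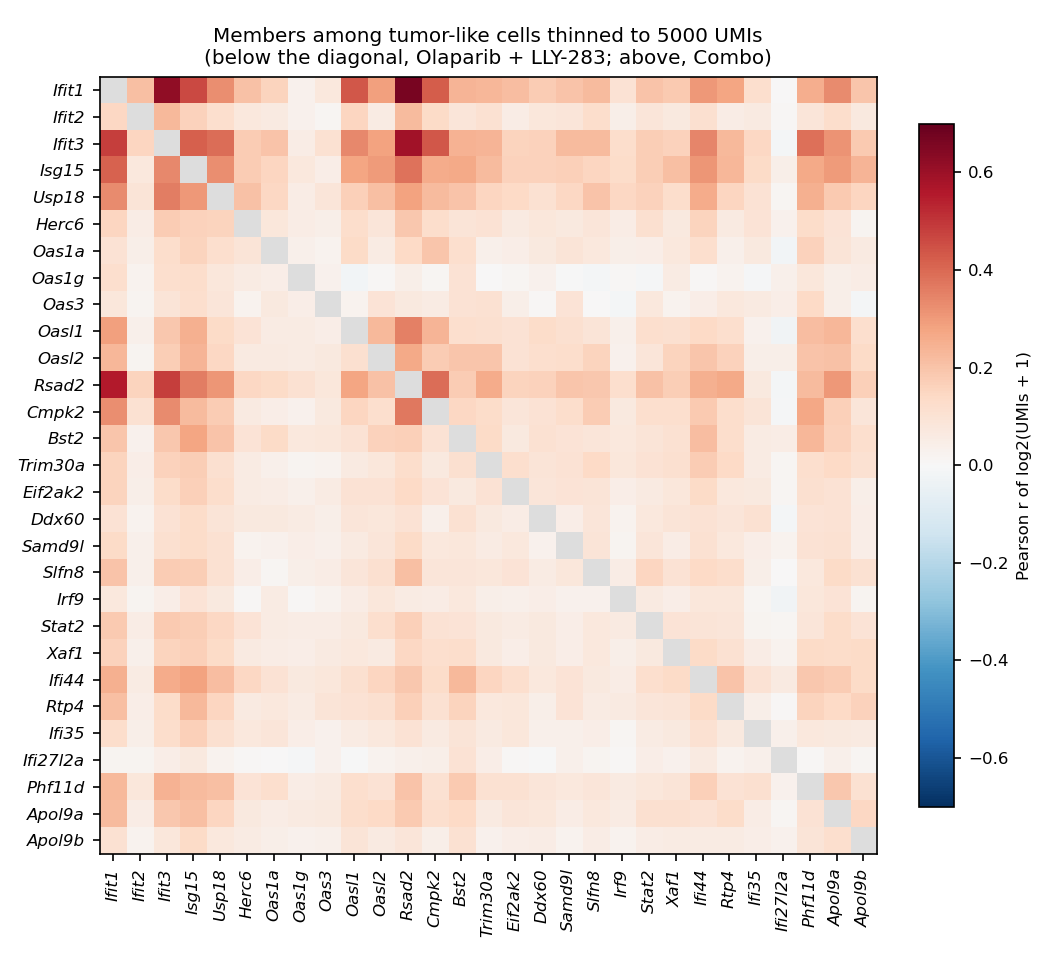
Pearson's r of log2(UMIs + 1) between 29 members over tumor-like cells thinned to 5000 UMIs, with Olaparib + LLY-283 (6871 cells) below the diagonal and Combo (2102 cells) above. The strongest pairs join Ifit1, Ifit3 and Rsad2, and the row of Ifi27l2a is close to 0.

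Markers of macrophages and neutrophils were summed in the cells highest in members and in the rest. The 8 macrophage markers summed to 44.8 CPM in the highest 10% of cells and 40.3 CPM in the others in Olaparib + LLY-283, where 5 of 8 were higher in the former, and to 54.3 and 55.7 CPM in Combo, where 4 were. The 6 neutrophil markers summed to 226 and 161 CPM, with 5 higher, and to 254 and 224 CPM, with 4 higher. In the highest cells 0 of the 8 macrophage markers were at 0, and of the neutrophil markers 0 and 2 were. The proliferation gene Mki67 was found in 34.5% and 28.2% of these cells in Olaparib + LLY-283 and in 24.8% and 28.9% in Combo, with no common direction. The part of RNA from other cells and of the cell cycle in the ranking was not tested.

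Of 9414 genes outside the list, those whose counts followed the member sum most closely were other interferon-induced genes. The first 10, by the mean r of both libraries, were Gbp3 (0.38), Gbp7 (0.37), Irf7 (0.35), Ly6a (0.30), Ifitm3 (0.30), Gbp2b (0.29), Iigp1 (0.29), Cxcl10 (0.29), Zbp1 (0.28) and Gbp2 (0.28). The median over all these genes was 0.0020 and the 99th percentile 0.087. Guanylate-binding proteins, of which 4 are in this list, and the GTPase IIGP1 are known above all as targets of interferon gamma.

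The level of the members was highest in the same tumor-like cluster in both libraries. Cluster 13 was the tumor-like cluster with the most Cxcl10, Gbp2 and Iigp1, and it held 203 cells (2.58%) of Olaparib + LLY-283 and 339 cells (15.7%) of Combo. Its members summed to 4721 CPM (4633 to 4809) and 2438 CPM (2415 to 2461), while the other tumor-like clusters lay between 799.98 and 1746 CPM. Although formed without the members, the clusters used Cxcl10 and other genes that vary with them, so this is a description. All 34 members were higher in cluster 13 than in the other tumor-like cells in both libraries. Mx1 stood at 36.8 and 17.3 CPM inside and 1.5 and 0.984 CPM outside, and Ifit3 at 219.6 and 78.7 CPM inside and 8.12 and 5.25 CPM outside. The cluster held 10.5% of the member UMIs of tumor-like cells in Olaparib + LLY-283 and 33.4% in Combo, from 2.64% and 16.3% of all UMIs. Of the 10% of thinned cells with the most member UMIs, 16.0% and 43.3% lay in cluster 13, so most lay outside it. Of the other 90% of cells, 1.20% and 13.1% lay in it.

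The libraries differed in how the member UMIs divided between cluster 13 and the other tumor-like cells, while at equal depth the counts per cell had a median of 4 in both. The cluster was drawn in cells of unlike depth and from genes that vary with the members. Inside cluster 13 all 34 members were lower in Combo. In the other tumor-like cells 25 were lower and 9 higher, and the sum was 1087 and 946 CPM, a log2 ratio of −0.20. Past 1.5-fold in these other cells were 0 members higher and 4 lower, Ifit1 (−0.93), Ifit3 (−0.63), Ifit3b (−0.77) and Mx1 (−0.61), each of which was higher in Combo over all tumor-like cells. No share of all genes in cluster 13 or in the other cells stands beside these counts, so they describe the members only. Removal of this cluster was chosen after the data had been seen.

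The pathway genes around the members were read in the same classes. The transcripts of the ligands were rare. Of 18 type I interferon genes, 3 had any UMI, with 28 UMIs in all cells of Olaparib + LLY-283 and 8 in those of Combo. Ifnb1, interferon beta, gave 25 of the 28, from 8 cells, of which 1 held 14. Ifng, interferon gamma, was the only ligand with at least 20 UMIs in a class, with 3 and 100 UMIs in lymphocyte-like cells, or 42.6 and 467 CPM, a log2 ratio of 3.46 (1.87 to 5.76).

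Receptors and kinases showed no difference past the rule in tumor-like cells, with 0 higher and 0 lower of 8 genes. Of 7 in neutrophil-like cells, 3 were higher in Combo, with Ifnar2 at 53.1 and 99.7 CPM. In macrophage-like cells Ifnar1 was the 1 higher of 8, at 55.2 and 90.2 CPM and a log2 ratio of 0.71 (0.42 to 1.01). Of 8 transcription factors, Irf1, which answers mainly to interferon gamma, was the 1 higher gene in tumor-like cells, at 37.5 CPM in Olaparib + LLY-283 and 72.1 CPM in Combo (0.94, 0.88 to 1.00). In neutrophil-like cells 5 of 7 factors were higher, among them Irf1 at 108 and 239 CPM. In fibroblast-like cells 1 of 6 factors was higher and 1 lower. The lower one was Irf7, the amplifier of type I interferon production, at 52.8 and 22.4 CPM. Receptors and kinases gave 2 higher and 0 lower of 7 in this class, and negative regulators 1 and 1 of 6.

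Negative regulators were past the rule in 0 of 7 cases in tumor-like and macrophage-like cells, and 5 of 7 were higher in neutrophil-like cells, with Socs1, an inhibitor of JAK kinases, at 48.9 and 86.8 CPM. Among 28 other interferon-stimulated genes, 5 were higher and 0 lower in tumor-like cells. These were Gbp2, at 135 and 236 CPM (0.81, 0.78 to 0.84), the interferon gamma target Iigp1, at 15.6 and 25.3 CPM (0.70), Dhx58, Sp110 and Pnpt1. The same list gave 4 higher and 0 lower of 28 in macrophage-like cells, 12 and 3 of 26 in neutrophil-like cells and 1 and 5 of 27 in fibroblast-like cells. Over all pathway genes with at least 20 UMIs, 18 of 21 were higher in Combo and 0 lower in dendritic-like cells. In lymphocyte-like cells 11 of 22 were higher and 3 lower. Both of these classes held few cells. The background shares given above for each class apply to these counts too.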

How the data were processed

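Both libraries were analysed from the count matrices the authors deposited, which hold whole UMI counts per gene and cell without normalization. The matrix header names Cell Ranger 6.1.2, and the submitters' processing notes name bcl2fastq 5.0.1, Seurat 4.1.0 and mm10. The study's methods name a kit that reads the 3′ end of transcripts.

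A minimum of 200 genes and a limit of 20% on mitochondrial UMIs removed 86 cells of Olaparib + LLY-283 and 1586 of Combo. Doublets were scored with Scrublet in scanpy 1.11.5. Its own threshold called 0 cells in both libraries, so the highest scores were left out up to the expected rate of 0.8% per 1000 cells, 2055 and 284 cells. A cell took a class when at least 2 of its UMIs (3 for tumor-like) and a set share per 10000 came from the class's markers (4 for tumor-like, lymphocyte-like and dendritic-like, 10 for macrophage-like, 100 for neutrophil-like and fibroblast-like). Gates were set after levels had been seen, and Fscn1 was left out of the dendritic markers because tumor-like clusters carried it. Cells that passed for more than 1 class were left out as mixed, 91 and 84 cells, as a further guard against doublets. Tumor markers made a cell of another class mixed only where at least 2 different ones were found. With a single tumor marker gene the cell stayed in the other class. Leiden clusters (leidenalg 0.10.2, resolution 1.3, 20 neighbors, 30 components, 2000 variable genes) were formed without the members and pathway genes.

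UMIs were summed per class and library and given as CPM. Thinning was repeated in 5 draws. Gene positions and types come from GENCODE M21, and promoter windows from RefSeq (GRCm38.p6). The work was done in Python 3.11.15 with matplotlib 3.10.9, pandas 2.3.3, scipy 1.17.1 and numpy 2.4.6, and the ratio and thinning steps were tested on simulated data. The intervals cover counting error only.

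The members, lists and pathway genes were chosen with earlier results of these data known. Besides all members, the text names in each class the 3 highest and 3 lowest by log2 ratio among members with at least 100 UMIs, the 10 closest partners, and pathway genes. Alternatives changed the cell filter, doublets, gates, clusters, scaling, weight of cells, low-count filter, fold, thinning and correlation. Added after the data had been seen were the removal of shared barcodes and of cluster 13, the use of cluster 7 alone, the subtraction of tumor RNA and repeated thinning draws. A result on 1 pathway gene is not reported here.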

Additional observations from a re-analysis of the deposited data

Results flagged for a closer look

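The member Ifit1 differed in opposite directions between 2 classes. Its log2 ratio of Combo over Olaparib + LLY-283 was 0.65 in neutrophil-like cells and −1.75 in fibroblast-like cells, each class with 1 library per group. The difference between the classes was not tested. The fibroblast-like value came from 34 and 15 UMIs and was 0.20 with the marker gates divided by 2. Within neutrophil-like cluster 7 Ifit1 had 144 and 157 CPM, a log2 ratio of 0.13, against 247 CPM in cluster 12 of Combo.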

How the results depend on the processing

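No paired analysis was possible because each group has 1 library. For the same reason no replicate could be left out. Of the summary values under all alternatives, 195 stayed within their counting interval or within 1.5 times their count, 84 moved and 3 reversed, and the cause was not tested unless the setting itself removes cells or genes. The number of other classes, of 5, whose sum lay above tumor-like cells in both libraries was 4, and 5 with gates multiplied by 2, as a mean over cells, without the 1% of cells with the most member UMIs and without cluster 13. With gates divided by 2 it was again 4, but fibroblast-like cells took the place of lymphocyte-like cells, whose sum in Combo was then 987 CPM against 1212 CPM in tumor-like cells.

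Log2 ratios of the summed level were as follows, beside the values in the report. In tumor-like cells the ratio was −0.11 with gates multiplied by 2, −0.0095 from Leiden clusters, −0.0074 without mitochondrial and ribosomal protein genes, −0.048 after subtraction of the median of all genes, 0.046 as a mean over cells, −0.036 without the 1% of cells with the most member UMIs and −0.20 without cluster 13. In macrophage-like cells it reversed to 0.11 with doublets kept, 0.0014 with gates divided by 2 and 0.17 as a mean over cells, and was −0.12 both after subtraction of the median and after subtraction of tumor RNA. In neutrophil-like cells it was 0.58 with at least 1000 UMIs per cell and with gates divided by 2, 0.46 with doublets kept, 0.28 with gates multiplied by 2 and without mitochondrial and ribosomal protein genes, 0.26 as a mean over cells, 0.033 in cluster 7 alone and 0.13 after subtraction of tumor RNA. In fibroblast-like cells it was −0.30 with doublets kept, −0.010 and −0.061 with gates multiplied and divided by 2, −0.26 from Leiden clusters, −0.16 as a mean over cells and −0.19 without the 1% of cells. In lymphocyte-like cells it was −1.04 with gates divided by 2 and −0.18 from Leiden clusters, and in dendritic-like cells 0.0034 from Leiden clusters.

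Counts of members past the rule moved as follows. The shares of all genes given above hold for the main settings only. No share of all genes under the changed settings stands beside these counts, so they describe the members only. In tumor-like cells the number higher was 2 as a mean over cells, and 0 at 2-fold and without cluster 13, where 4 were lower. In macrophage-like cells the number higher was 5 with doublets kept, 4 with gates divided by 2, 6 as a mean over cells, 1 after either subtraction and without the 1% of cells, and 0 at 2-fold, and the number lower was 7 after subtraction of tumor RNA and 0 with a minimum of 100 UMIs. In neutrophil-like cells the number higher was 15 with gates divided by 2 and 1 at 2-fold, and the number lower was 4 with gates divided by 2 or a minimum of 1 UMI, and 1 after subtraction of tumor RNA, with a minimum of 100 UMIs or at 2-fold. In fibroblast-like cells the number higher was 1 with gates multiplied by 2, from Leiden clusters, as a mean over cells or without the 1% of cells, and 2 with gates divided by 2 or a minimum of 1 UMI, and the number lower was 3 with gates divided by 2, 4 without the 1% of cells and at 2-fold, 1 with a minimum of 100 UMIs and 16 with a minimum of 1 UMI. In lymphocyte-like cells the number higher was 2 with at least 1000 UMIs per cell or gates multiplied by 2, 4 from Leiden clusters, 0 with a minimum of 100 UMIs and 6 with 1 UMI, and the number lower was 4 with gates divided by 2, 1 with a minimum of 100 UMIs or at 2-fold and 19 with 1 UMI. In dendritic-like cells the number higher was 7 with gates divided by 2, 1 without the 1% of cells, 0 with a minimum of 100 UMIs and 12 with 1 UMI, and the number lower was 2 from Leiden clusters, 1 as a mean over cells and 5 with 1 UMI.

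The median r between members in Olaparib + LLY-283 and Combo was 0.049 and 0.057 at 2000 UMIs, 0.13 and 0.16 at 10000 UMIs, 0.070 and 0.083 as Spearman's rho, and 0.059 and 0.062 without cluster 13. It was 0.077 with doublets kept and 0.089 from Leiden clusters in Olaparib + LLY-283, and 0.090 among cells without Mki67 or Top2a in Combo. The next count covers only members past the rule in a class or among its 3 highest or 3 lowest. Of these, members whose interval left out 0 changed sign 8 times. In neutrophil-like cells they were Cmpk2 (−0.21, at least 1000 UMIs per cell) and Bst2 (0.20, tumor RNA subtracted). In fibroblast-like cells they were Bst2 (0.074, gates multiplied by 2, and 0.20, mean over cells) and Ifit1 (0.20, gates divided by 2). Ifit3 (0.13) and Isg15 (0.11) did so in macrophage-like cells as a mean over cells, and Mx1 (−0.61) in tumor-like cells without cluster 13. Other members were not counted, such as Ifit1 (−0.93), Ifit3 (−0.63) and Ifit3b (−0.77), which also changed sign in tumor-like cells without cluster 13. Sign changes of members whose interval held 0 are also not among the 8. Among them were Ifi44 in dendritic-like cells, at −0.34 from Leiden clusters, Trim30a in fibroblast-like cells under 4 alternatives, and Ifi27l2a and Samd9l in neutrophil-like cells under 7 each.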
